A study of Mus musculus with 2 samples.

Results

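The epidermal differentiation complex is a cluster of genes on mouse chromosome 3 whose products build the outer, cornified layer of the skin. The genes described here are those of the complex with symbols beginning Lce or S100a, together with filaggrin (Flg), Flg2, Rptn, Hrnr, Crnn, Tchhl1, Ivl, Crct1, Pglyrp3, Pglyrp4 and loricrin (Lor). Members were chosen by symbol among the RefSeq genes of assembly GRCm38.p6, and the small proline-rich (Sprr) genes and trichohyalin (Tchh) were left out. The rule named 48 genes, of which 47 lie in the complex and 1, S100a11-ps, is a pseudogene on another chromosome. Of the 48, 36 had a probe on the array that could be named through its accession, out of 18202 named genes. Signals were well above background on both arrays for 31 of these, on the control array alone for Lce3f, on the knockout array alone for S100a7l2, and on neither for S100a5, S100a7a and Tchhl1. The other 12 were not analysed here, among them Flg itself, Crnn, Pglyrp4, S100a2, Lce6a, Lce1j, Lce1k, Lce3a, Lce3b, Lce3d and Lce3e.

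Keratinocytes moving up through the epidermis switch these genes on late. Loricrin and involucrin are cross-linked under the cell membrane into the cornified envelope, and late cornified envelope (Lce) proteins are added to it. Filaggrin-type proteins join an S100 domain to long repeats. Filaggrin itself binds keratin and is later cut to small hygroscopic molecules. Most S100 proteins are small calcium-binding proteins, and some of them, such as the S100A8 and S100A9 pair, are antimicrobial and rise in inflamed skin. In psoriasis and wounded skin, Lce3 genes are known to be induced, whereas Lce1 genes belong to resting skin.

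The study compared epidermis of mice with floxed Nfkbiz alleles (Nfkbiz flox/flox), the control, and of mice with the same alleles and a K5-cre transgene, the knockout, both in the steady state. Nfkbiz encodes IκBζ, a nuclear protein of the NF-κB pathway, and the keratin 5 promoter that drives the recombinase is active in basal keratinocytes. In which cells of the epidermis the gene was deleted was not tested. Each genotype was measured on 1 one-colour Agilent array, and the strain, sex, age and number of mice behind each RNA sample are not given in the sources used here. With 1 array a genotype, the differences have no replicate check and no test was made. Bulk RNA was measured, so fewer cells of a type and less RNA per cell cannot be told apart.

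Both arrays were on 1 slide and scanned on 1 day, and signals were well above background for 56.2% and 56.3% of probes, with none saturated. The 75th percentile of probe signal was 194 (control) and 227 (knockout), and each array was scaled by its own. A log2 difference is always the knockout array minus the control array after this scaling, and the error after ± is a standard error from the scanner software, which takes an error of 10% of the signal for bright spots and covers technical error only. Precision is limited by the number of arrays. Nfkbiz itself had signals of 3100 and 1760 on the control and knockout arrays (log2 difference -1.04 ± 0.20), read by 1 probe whose position relative to the floxed exons the sources used here do not give. All 8 keratinocyte markers were well above background on both arrays, and their summed scaled level was 1480 (control) and 1346 (knockout). Muscle, melanocyte and red blood cell markers were lower on the knockout array, with summed scaled levels of 6.40 against 1.64, 9.05 against 2.13 and 94.7 against 9.46, and their part in the differences given here was not tested.

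Across the complex, most members lay close together on both arrays while Lce3c, Lce3f and Rptn were several-fold lower on the knockout array. At least 2-fold lower were 3 of the 31 members measured on both arrays (9.68%), against 4.46% of all 12404 genes measured on both, and 1 member (3.23%) was at least 2-fold higher, against 2.98% of all genes. In either direction, 7.44% of all genes were past 2-fold and 23.4% past 1.5-fold. At 1.5-fold, 9 members (29.0%) were lower, against 13.4% of all genes, and 1 was higher, against 10%. The median of the members was -0.21, beside -0.05 for all genes, and 17 of 31 (54.8%) lay between -0.35 and 0.27, the range that holds the middle of all genes from the 25th to the 75th percentile. Scaling by the median signal in place of the 75th percentile adds 0.35 to every difference. The median signals were 22.4 (control) and 20.6 (knockout), and the dimmest well above background were 12.7 and 12.1. This scaling turned the median of the members to 0.13 and that of all genes to 0.30. A value that it turns above 0 keeps its place among all genes. The distance of the members from the median gene stayed at -0.17. That distance was -0.19 under quantile normalization, -0.08 under cyclic loess and -0.08 under normexp background correction.

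**Figure D1:**
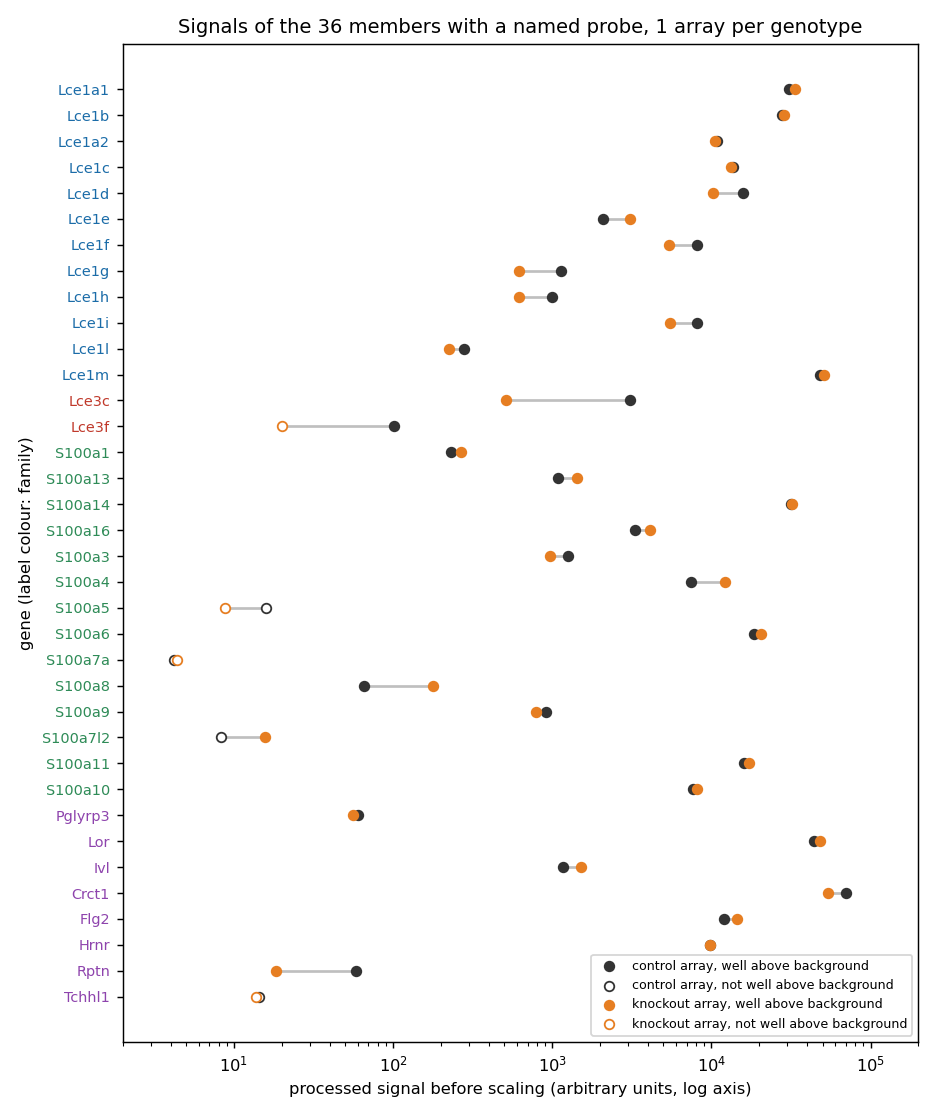
Processed signals before scaling (horizontal log axis, arbitrary units) of the 36 members with a named probe (vertical axis, label colour by family), 1 point per array, open where the probe was not well above background. The points of most genes nearly coincide, while those of Lce3c, Lce3f and Rptn are far apart with the knockout point on the left, and that of S100a8 has it on the right.

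The Lce3 genes were lower on the knockout array at every probe that could be named. Lce3c was read by 2 probes. The brighter had a signal of 3100 (control) and 515 (knockout), and the other 1470 and 174. Both were lower on the knockout array, by log2 differences of -2.82 ± 0.20 (7.04-fold) and -3.31 ± 0.21 (9.89-fold). Lce3c ranked 22 from the lowest of 12404 genes. The well-measured spots within 3 rows and 3 columns of its probes had median differences of -0.17 and -0.02. Among the other settings, Lce3c ranged from -2.47 under median scaling to -3.06 as the mean of both probes. Lce3f had a signal of 101 (control) and 20.1 (knockout), where it was not well above background. Its bound of 5.88-fold lower takes this dim signal as it stands (log2 difference -2.56 ± 0.36). For comparison, 180 of 482 genes seen only on the control array (37.3%) had a bound of at least 2-fold. The spot of Lce3f lies near one marked as non-uniform, and the well-measured spots around it had a median difference of 0.31.

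The promoters of these Lce3 genes are shown because both were several-fold lower. From RefSeq on GRCm38.p6, they run from 250 bases before the start of the transcript to 50 after it, at chr3:92944236-92944535 and chr3:92991967-92992266, both on the + strand. Capitals mark the longest run of letters that they share.
Lce3c: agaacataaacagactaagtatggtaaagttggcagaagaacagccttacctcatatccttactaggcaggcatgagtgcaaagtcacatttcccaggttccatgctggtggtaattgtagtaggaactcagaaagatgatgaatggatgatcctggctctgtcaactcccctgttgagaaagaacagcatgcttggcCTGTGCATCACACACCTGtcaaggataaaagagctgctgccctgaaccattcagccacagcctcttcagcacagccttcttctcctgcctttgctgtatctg
Lce3f: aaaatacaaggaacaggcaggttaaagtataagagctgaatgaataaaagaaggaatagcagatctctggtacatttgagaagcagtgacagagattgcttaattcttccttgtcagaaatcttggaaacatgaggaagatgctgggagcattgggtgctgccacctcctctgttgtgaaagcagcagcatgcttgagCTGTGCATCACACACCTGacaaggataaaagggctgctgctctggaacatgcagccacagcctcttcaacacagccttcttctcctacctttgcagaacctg
The shared run is 18 bases long and begins 52 bases before the start in both. It was found in 3 of 32851 mouse promoters of this length, those of Lce3c, Lce3e and Lce3f. The run was taken from Lce3c and Lce3f, so its presence in them was fixed in advance. It does not set them apart from other Lce3 genes. Lce3c shared longer runs with Lce3d (34 bases) and Lce3e (32 bases), and Lce3f shared 21 bases with each. Lce3d and Lce3e had no named probe. When aligned, the promoters of Lce3c and Lce3f were 69.1% identical. Promoters of Lce3 pairs had a median identity of 59.5% (15 pairs), those of Lce1 pairs 65.7% (78 pairs), and pairs of an Lce1 with an Lce3 promoter 52.8% (78 pairs).

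The Lce1 genes, which encode envelope proteins of normal skin, were read for 12 of 14 members, all on both arrays. Their median difference was -0.41, and it stayed below 0 under the 4 other normalizations, at -0.064 under median scaling, -0.38 under quantile normalization, -0.37 under cyclic loess and -0.28 under normexp. Of the 12, 11 were below the median gene. At least 1.5-fold lower were 5 (41.7%) and at least 2-fold lower 1 (8.33%), against 13.4% and 4.46% of all genes. None was 1.5-fold higher. The genes did not move as a block. Lce1a1 had signals of 30800 (control) and 33300 (knockout), which after scaling is a difference of -0.11 ± 0.20. Lce1m had signals of 48400 and 50900, a difference of -0.15 ± 0.20. Lce1b had 27900 and 28600 at its brighter probe (-0.19 ± 0.20), with its other probe at -0.34. Lce1a2 and Lce1c differed by -0.27 ± 0.20 and -0.28 ± 0.20. These 5 genes turned above 0 under median scaling.

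Other Lce1 genes lay further down. Lce1d had a signal of 15800 (control) and 10200 (knockout) (-0.86 ± 0.20), and Lce1f had 8160 and 5440 (-0.81 ± 0.20). For Lce1h the signals were 993 and 614 (-0.92 ± 0.20). For Lce1i they were 8080 and 5500 (-0.78 ± 0.20), where the well-measured spots around its probe had a median of -0.42. Lce1l had 280 and 225 (-0.54 ± 0.21). All of these stayed below 0 under the 5 normalizations. Lce1g was the only Lce1 gene past 2-fold, with signals of 1140 and 617 (-1.11 ± 0.20, 2.16-fold). Its dimmer probe, at 26.8 and 22, differed by -0.51 ± 0.32, and under median scaling and normexp Lce1g was at -0.76 and -0.99. Lce1e alone was above 0, with signals of 2070 (control) and 3100 (knockout) (0.36 ± 0.20). Lce1 genes are close copies of one another, and the sequences of the probes were not used here, so how far a probe also reads a neighbouring copy was not tested.

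In the order of the genes along chromosome 3, 6 of the 9 members at least 1.5-fold lower lay in 1 stretch, from Lce1f to Crct1, a grouping noticed after the values were seen. The others, Rptn at -1.90, Lce1d at -0.86 and S100a3 at -0.60, lay elsewhere in the complex, as did the lower non-members Tchh at -1.37 and Prr9 at -0.81. From Lce1f through the Lce3 genes to Crct1, 8 members had a named probe, and all 8 were lower on the knockout array, 7 by differences from -0.54 to -2.82 and Lce3f by its bound. Over all genes measured on both arrays, 54.5% were below 0. The ends of the stretch were chosen with the values known, so its members being lower follows in part from that choice. This share is therefore no fair measure for it. The 7 stayed below the median gene under the 5 normalizations, with medians from -0.46 to -0.81. On the side of this stretch nearer involucrin, the 4 genes from Lce1a1 to Lce1c lay between -0.11 and -0.28. Lce1d and Lce1e, which come between, went opposite ways. On its far side Lce1m was at -0.15. Crct1, a cysteine-rich gene at the end of the stretch, had signals of 69700 (control) and 53800 (knockout) (-0.60 ± 0.20). Not every gene of the stretch was lower: Kprp, a keratinocyte proline-rich protein gene between Lce1k and Lce1l, had signals of 29200 and 34900 (0.03 ± 0.20). The gene 2310050C09Rik, between Lce1l and Lce3a, was at -0.19 ± 0.20.

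**Figure D2:**
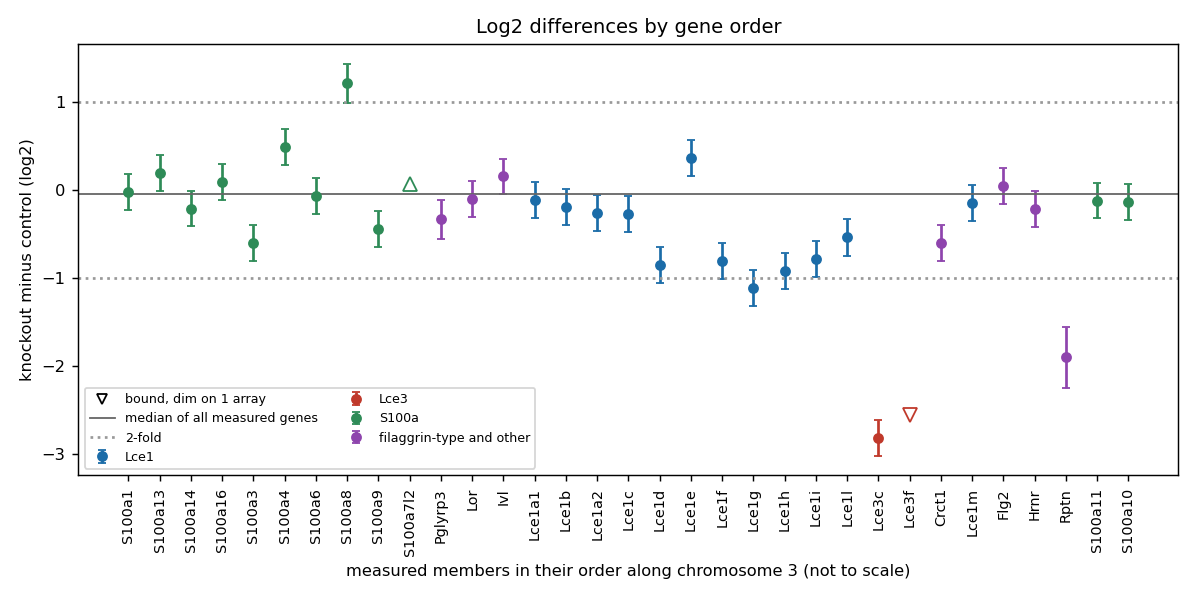
Log2 differences, knockout minus control (vertical axis), of the 33 members measured on at least 1 array, in their order along chromosome 3 (horizontal axis, not to scale), with standard errors of the scanner software and triangles for bounds. Members from Lce1f to Crct1, a stretch chosen after the values were seen, lie between -0.54 and -2.82. Most others lie near the line at -0.05 that marks the median of all genes. Median scaling moves every point up by 0.35 and turns those of Lce1a1 to Lce1c above 0, with the median of all genes then at 0.30.

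Among the measured filaggrin-type members, repetin differed between the arrays, and Flg2 and Hrnr much less. Trichohyalin (Tchh), left out by the rule, was also lower on the knockout array, at -1.37 ± 0.20. Rptn, which encodes an S100-fused envelope precursor, had a signal of 58.5 (control) and 18.3 (knockout). It was lower on the knockout array by a log2 difference of -1.90 ± 0.35 (3.74-fold), which ranked 103 from the lowest of all genes. Its knockout signal was close to 12.1, the dimmest well above background on the knockout array. Under normexp the difference was -0.66, below 2-fold. That setting adds an offset of 50 to the signal on each array, which by itself draws dim signals together. It therefore cannot tell how far the difference of Rptn depends on background. Flg2, filaggrin-2, had signals of 12000 and 14500 (0.05 ± 0.20). Hornerin (Hrnr) had 9780 and 9860 at its brighter probe (-0.21 ± 0.20) and 1560 and 1750 at the other (-0.06 ± 0.20), and turned above 0 under median scaling. Tchhl1, a relative of trichohyalin, had 14.4 and 13.7, not well above background on either array.

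The classical envelope proteins were close on both arrays. Loricrin had a signal of 44200 (control) and 48100 (knockout) (-0.10 ± 0.20). Involucrin (Ivl) had signals of 1170 and 1520 (0.15 ± 0.20). Neither lay outside the middle range of all genes, and loricrin turned to 0.24 under median scaling, where the median gene was at 0.30. Pglyrp3, a secreted peptidoglycan recognition protein that acts on bacteria, had 59.9 and 55.6 (-0.33 ± 0.22), and 0.01 under median scaling. The median of these 7 filaggrin-type and other members was -0.21 and turned to 0.13 under median scaling.

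Rptn and Lor are set side by side because both promoters hold matches to TGANTCA and TATAAA while Rptn was past 2-fold and Lor was not. The stretches lie at chr3:93393449-93393748 on the + strand and chr3:92083093-92083392 on the - strand of GRCm38.p6, from RefSeq. Capitals mark the letters TGANTCA, a loose form of the AP-1 motif of Fos and Jun dimers, and TATAAA, the TATA box. N stands for any base, and it is T in Rptn and G in Lor. Binding to either match was not tested.
Rptn: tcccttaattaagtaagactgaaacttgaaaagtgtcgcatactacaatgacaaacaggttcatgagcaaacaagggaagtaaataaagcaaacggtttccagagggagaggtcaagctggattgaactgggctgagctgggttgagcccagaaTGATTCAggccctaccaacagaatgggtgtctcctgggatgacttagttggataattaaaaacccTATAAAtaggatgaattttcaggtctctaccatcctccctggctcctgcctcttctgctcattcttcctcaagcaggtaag
Lor: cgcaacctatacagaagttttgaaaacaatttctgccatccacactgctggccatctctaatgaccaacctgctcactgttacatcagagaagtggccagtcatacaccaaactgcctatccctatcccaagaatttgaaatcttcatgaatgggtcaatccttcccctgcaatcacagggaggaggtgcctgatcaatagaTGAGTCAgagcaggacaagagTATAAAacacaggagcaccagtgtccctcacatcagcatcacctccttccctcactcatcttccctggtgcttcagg
The TGANTCA match begins 96 bases before the start in Rptn and 48 in Lor, and the TATA box 31 and 27. Promoters were listed for 40 members (44 promoters, since some genes have several starts). Searched on both strands, TGANTCA was in 7 of the 8 promoters of filaggrin-type and other members (87.5%), 3 of 16 of S100a genes (18.8%) and 0 of 20 of Lce genes. It was in 7.81% of all 32851 promoters. TATAAA was in 6 of the same 8, 5 of 16 and 4 of 20, against 13.6% of all. The κB consensus was in 0 of the 44, against 8.46% of all, the AP-2 motif GCCNNNGGC in 5 (11.4%, against 16.6%), and CACNCCC, a motif of KLF proteins, in 6 (13.6%, against 29.2%). No searched motif is contained in another. These counts describe letters in a 300-base window.

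S100a genes as a family lay near the rest of the array, with S100a8 the member furthest from it. Of 16 symbols, 14 had a named probe and 11 were measured on both arrays. Their median was -0.07, which turned to 0.28 under median scaling and 0.014 under normexp. The median of all genes was 0.30 and -0.04 under those settings. S100a8 and S100a9 encode the subunits of calprotectin, which binds zinc and manganese and limits bacterial growth. S100a8 had a signal of 65.7 (control) and 178 (knockout), higher on the knockout array by 1.21 ± 0.22 (2.32-fold). Under normexp, whose offset of 50 draws dim signals together, it was higher by 0.68. S100a9 had 918 and 788, lower on the knockout array by a difference of -0.45 ± 0.20. The subunits thus lay on opposite sides of the median gene, and S100a9 stayed below 0 under the 5 normalizations. Neutrophils carry large amounts of both. The 7 other neutrophil markers with a probe, Mpo, Elane, Camp, Ngp, Retnlg, Csf3r and Cxcr2, were not well above background on either array, and their summed scaled level was 0.285 (control) and 0.250 (knockout). The part of neutrophils in the values of S100a8 and S100a9 was not tested.

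Of the other S100 genes, S100a4, which is expressed by motile, immune and mesenchymal cells, had signals of 7400 (control) and 12100 (knockout) (0.48 ± 0.20, 1.40-fold higher). Beside it, the summed scaled level of 5 Langerhans cell markers was 39.5 (control) and 57.7 (knockout), that of 5 T-cell markers 16.9 and 17.1, and that of 6 fibroblast markers 13.1 and 11.2. The T-cell sum is mostly that of Thy1, at -0.27, while the other 4 T-cell markers were above 0, and the median of the 5 was 0.37. For the Langerhans markers the median was 0.67, with 4 above 0 and Epcam at -0.38. The largest part of the Langerhans sum is Cd74, at 0.75. For the fibroblast markers measured on both arrays the median was -0.32. The Langerhans and T-cell markers were well above background on both arrays, as were 5 of the 6 for fibroblasts, where Pdgfra was not. Their part in the difference was not tested. The well-measured spots around the S100a4 probe had a median of 0.29. S100a3, a protein of the hair cuticle, had 1260 and 970 (-0.60 ± 0.20, 1.52-fold lower). Of the hair shaft markers, all 5 with a probe were well above background on both arrays and above 0, from 0.09 to 1.40, with summed scaled levels of 26 and 34.4. Their part in the difference of S100a3 was not tested.

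The remaining S100 genes measured on both arrays lay within the middle range of all genes. S100a10, the partner of annexin A2, had signals of 7630 and 8100 (-0.14 ± 0.20), and S100a11 had 16000 and 17200 (-0.12 ± 0.20). S100a6 had 18500 and 20600 (-0.07 ± 0.20). S100a14 had 31800 and 32100 (-0.21 ± 0.20). S100a16 and S100a13 were at 0.09 ± 0.20 and 0.19 ± 0.20, and S100a1, with signals of 232 and 266, at -0.03 ± 0.21. These 4 genes below 0 with bright signals and S100a1 turned above 0 under median scaling. The gene of mouse psoriasin, S100a7a, had signals of 4.21 and 4.38, not well above background on either array, like S100a5 at 15.8 and 8.75. S100a7l2 had 8.31 on the control array, not well above background, and 15.6 on the knockout array, a bound of at least 1.05-fold higher.

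**Figure D3:**
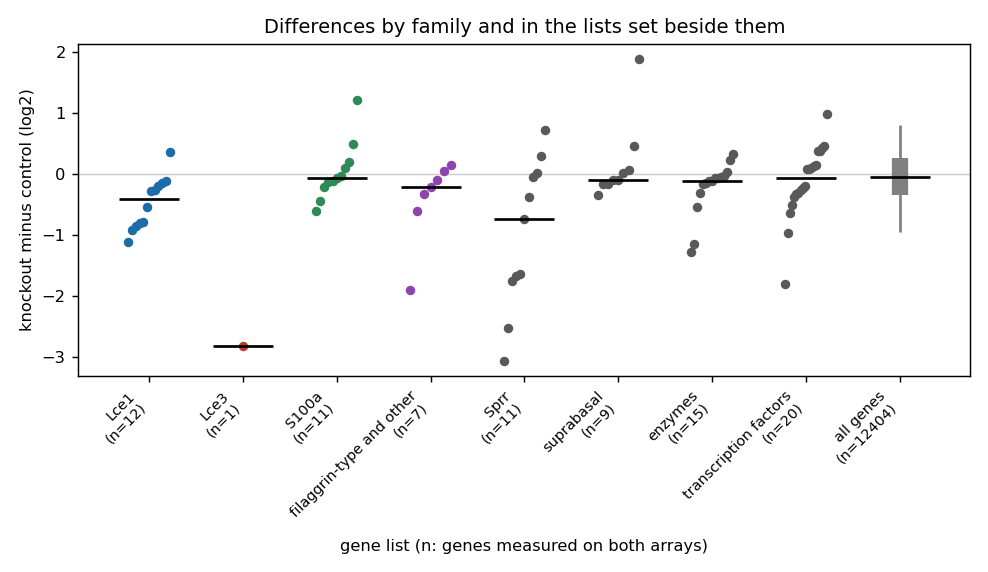
Log2 differences, knockout minus control (vertical axis), of genes measured on both arrays, by family and list (horizontal axis, n under each name), 1 point per gene in ascending order with black lines for medians; the last column gives the 5th, 25th, 50th, 75th and 95th percentiles of all 12404 genes as a line, a box and a bar. Sprr genes spread from -3.07 to 0.73 and Lce1 genes from -1.11 to 0.36. Median scaling moves all values up by 0.35, with the median of all genes then at 0.30. It turns the medians of the S100a, filaggrin-type, suprabasal, enzyme and transcription factor lists above 0. Cyclic loess does so for the suprabasal list and normexp for the S100a list.

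Set beside the neighbouring small proline-rich genes, the family most like them in place and function, the members lay closer together. Sprr genes were measured on both arrays in 11 cases, and 5 of these (45.5%, against 4.46% of all genes) were lower by 2-fold or more. Their median was -0.75, and -0.40 under median scaling. Sprr2d was at -3.07 and Sprr4 at 0.73. The SD across genes was 0.71 for the 31 members, 1.23 for the 11 Sprr genes and 0.59 for all 12404 genes. By this measure the members were less spread than Sprr genes but more spread than all genes, and these differences were not tested. Suprabasal keratins and their secreted partners, which mark the layer below, had a median of -0.10 (0.25 under median scaling, 0.07 under cyclic loess). Of these, 1 of 9 genes was past 2-fold (11.1%, against 7.44% of all genes in either direction), the metallothionein gene Mt4, 3.69-fold higher. Krt10 and Krt1, the keratins of that layer, were at -0.17 and -0.10.

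The enzymes that cross-link and process these proteins lay mostly near the median gene, with a median of -0.11 that median scaling turns above 0. At least 2-fold lower were 2 of 15 (13.3%, against 4.46% of all genes), and 0 were higher (against 2.98%). Padi3, which citrullinates filaggrin, trichohyalin and S100A3, had signals of 679 (control) and 326 (knockout) (-1.29 ± 0.20). Prss8, the channel-activating protease prostasin needed for filaggrin processing, had 847 and 446 (-1.15 ± 0.20). Tgm1, the transglutaminase that cross-links the envelope, was at -0.17, Casp14, which degrades filaggrin, at -0.11, and the peptidase Asprv1 at -0.14. Among 20 measured transcription factors that act on the complex, 1 was past 2-fold lower (5%, against 4.46% of all genes) and 0 higher. Their median of -0.06 also turns above 0 under median scaling. Fosl1, the AP-1 subunit Fra-1, had 1650 and 554 (-1.80 ± 0.20, 3.48-fold lower). Another AP-1 subunit, Fosl2, had 758 and 1760 (0.99 ± 0.20), just under 2-fold higher. Hopx, a homeodomain protein of differentiating keratinocytes, was at -0.96 ± 0.20, and the barrier factor Klf4 at 0.09 ± 0.20.

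Of the receptors and partners of S100 proteins, 5 of 7 were measured on both arrays and 0 were past 2-fold, against 7.44% of all genes. Anxa2 was at 0.51 ± 0.20 and Anxa1 at -0.18 ± 0.20. Ager, which encodes the S100 receptor RAGE, had signals of 6.47 on the control array, not well above background, and 22.3 on the knockout array, and Tlr4 was not well above background on either. S100b, an S100 gene outside the complex, had 26 and 108 (1.83 ± 0.26, 3.55-fold higher). Of the peptidoglycan sensors, 1 of the 4 measured was past 2-fold (25%, against 7.44% of all genes in either direction). This was Nod2, a cytoplasmic receptor for muramyl dipeptide, which had 1340 and 471 (-1.74 ± 0.20). Tlr2, the surface receptor for bacterial lipoproteins, had 67.1 and 146.8 (0.91 ± 0.07).

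**Figure D4:**
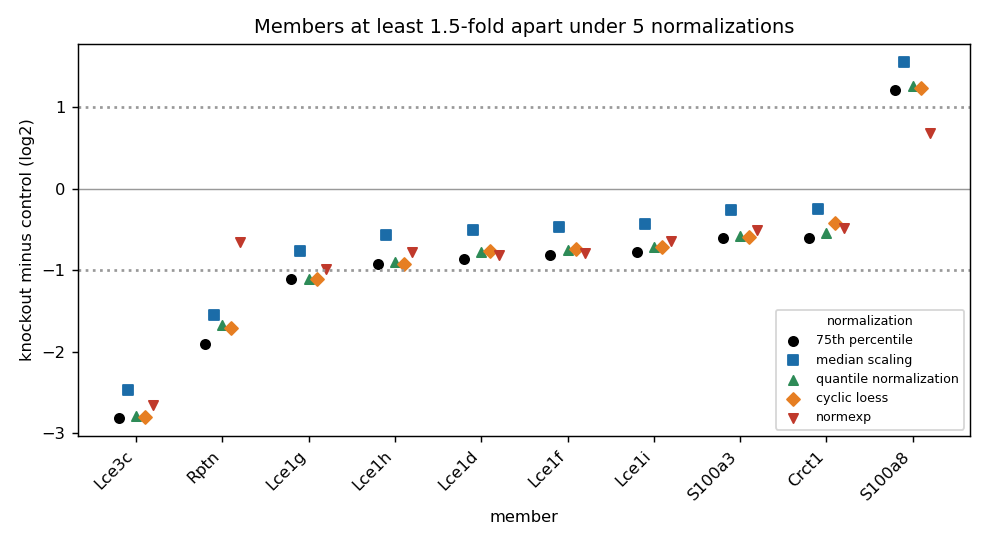
Log2 differences, knockout minus control (vertical axis), of the 10 members at least 1.5-fold apart (horizontal axis), 1 marker for each of 5 normalizations. Each gene keeps its direction and Lce3c stays past 2-fold in all 5. Under normexp, whose offset of 50 draws dim signals together, Rptn moves to -0.66 and S100a8 to 0.68.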

How the data were processed

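Epidermis peeled from ammonium thiocyanate-treated skin was hybridised to 2 one-colour arrays, 1 per genotype. Per the file headers, Agilent Feature Extraction 10.7.3.1 made the deposited intensities, already background-subtracted and detrended within each array, on a design annotated on mm9. The log2 table deposited by the authors is centred on each probe (largest absolute sum of its columns 1e-06). Its columns had medians of 0.14 for the control and -0.14 for the knockout, and its differences matched the scanner values (r = 1.00 across probes, offset -0.00), which settles its scale and direction, while levels cannot be had from it.

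Outlier spots and control spots were left out, spots of a probe averaged on the log2 scale, and each array scaled by its 75th percentile. Accessions named 26682 of 41174 probes (64.8%) through RefSeq genes of GRCm38.p6, used for names and gene order only. The brightest probe measured on both arrays stood for a gene. For a gene well above background on 1 array only, the fold is a bound: the dim side was set to its own signal or, if higher, to the dimmest signal that was well above background there. Where the dim side kept its own signal, the bound is the measured difference and carries its error. Calls are by size, at 2-fold, without p-values, since each genotype has 1 array. The calling code was tested on simulated data with 1 probe per gene, all well above background. The background filter, the scaling, the choice of probe and the bounds were not tested in this way. The rule for named genes took members at least 1.5-fold apart or bounded so, the 5 brightest and 5 dimmest, filaggrin-type members, S100a8 and S100a9, members whose probes differ in sign, Nfkbiz, and genes of the other lists past 2-fold. The other members are given to account for all, and other genes named were chosen after their values were seen. The members, lists and alternatives were chosen with earlier results of these data known. Other settings tried were scaling by the median, cyclic loess, quantile normalization and normexp with an offset of 50 (limma 3.58.1, R 4.3.3), a mean over a gene's probes, the table of the authors, other filters on dim or non-uniform spots, and thresholds of 1.5 and 3. Normexp used median spot signals without non-uniform spots. All else was computed in Python 3.11.15 (pandas 2.3.3, numpy 2.4.6) and drawn with matplotlib 3.10.9.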

Additional observations from a re-analysis of the deposited data

How the results depend on the processing

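No paired analysis was possible because there was 1 array of each genotype, and for the same reason no array could be left out. The 1 member at least 2-fold higher became 0 under normexp and at 3-fold. The 3 members at least 2-fold lower became 1 under normexp, 2 under median scaling, with the mean over probes and at 3-fold, 9 at 1.5-fold, 4 when genes above background on at least 1 array entered, and 5 with no filter on background, where Lce3f and S100a5, not well above background on 1 or both arrays, were added. They numbered 3 under quantile normalization, loess, the authors' table and without probes near non-uniform spots. Under median scaling the median of all genes measured on both arrays was 0.30. There the medians were 0.13 for all members, -0.064 for Lce1 genes and -2.47 for the 1 measured Lce3 gene. They were 0.28 for S100a genes and 0.13 for filaggrin-type and other members. The S100a median was 0.014 under normexp, and the Lce3 value was -3.06 as the mean over probes. Median scaling moved 30 of 31 members by more than their standard error, normexp 2 (Rptn and S100a8), the mean over probes 2 (Lce1g at -0.81 and Lce3c at -3.06), and quantile normalization, loess, the authors' table and the filters 0. Across the whole array, median scaling gave 282 genes past 2-fold lower and 1009 higher, against 553 and 370 in the main setting. Under normexp, whose offset of 50 draws dim signals together, these were 238 and 180. Signals near background limit Rptn, Lce3f and S100a7l2.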

Other observations

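Between S100a1 and S100a10 the gene order holds 37 further genes that are neither members nor Sprr genes, mostly predicted genes, of which 6 had a named probe. Tchh, trichohyalin of the inner root sheath, had signals of 8590 (control) and 3900 (knockout) (-1.37 ± 0.20). Prr9, next to loricrin, had 842 and 561 (-0.81 ± 0.20), and Smcp, between involucrin and the Lce genes, had dim signals of 28 and 21.3 (-0.62 ± 0.36). Lelp1 was not well above background on either array. These genes were looked up after the values of the members were seen.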
